A study of Rattus norvegicus with 6 samples.

Results

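The genes described here are 33 genes of the hypoxia response and of glycolysis, read out in RNA-seq of rat nucleus pulposus cells (NPCs), the cells of the gel-like core of the intervertebral disc. They were taken by symbol from the combined count table, which holds 20264 gene symbols. A row was found for 32 of them, and Egln1 was not analysed here. After the filter on low counts 29 were tested among 11426 genes, and the 3 that did not pass were Egln3, Tpi1 and Eno2. The members cover the HIF transcription factors and their hydroxylases, glucose transport, glycolysis, the handling of pyruvate and lactate, and a set of other HIF target genes.

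Primary NPCs were taken from the tail discs of wild type male Sprague-Dawley rats and cultured with serum under 5% CO2. All 6 libraries came from cells given TBHP (tert-butyl hydroperoxide), an oxidant used to bring on senescence. The TBHP group (3 libraries) received nothing else, and the TBHP+FGF21 group (3 libraries) also received recombinant rat FGF21, a secreted metabolic hormone. There was no untreated group, so only the effect of adding FGF21 to TBHP was compared, and the doses and duration for these libraries are not given in the sources used here. Of the TBHP+FGF21 libraries, only replicate 1 has FGF21 in its treatment label. That of replicate 2 reads FGF22 and that of replicate 3 reads FGF23, whereas the design and the treatment protocol give FGF21 for the whole group, which was followed. The replicates are described as biological, and nothing says whether they came from separate rats, so p-values measure the spread between these cultures.

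HIF-1alpha (Hif1a) and HIF-2alpha (Epas1) are transcription factor subunits that prolyl hydroxylases (the Egln genes) mark for destruction when oxygen is present. In hypoxia they escape this, pair with Arnt and bind a short DNA element whose core is ACGTG or GCGTG. Their targets include glucose transporters, nearly every enzyme of glycolysis, lactate dehydrogenase A, the lactate exporter Slc16a3 and the kinase Pdk1, which keeps pyruvate out of the mitochondria. The disc core has no blood vessels, and NPCs are known for living largely on glycolysis and for keeping HIF-1alpha active.

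The promoters of the members differ in how often they hold this element. Promoter windows of 300 bases, from 250 before to 50 after the start of the gene, were taken from RefSeq's GRCr8 sequence, and 30 of the 33 members had at least 1 window. The letters ACGTG and GCGTG were searched on both strands, and a palindromic CACGTG counts on each strand. At least 1 match was found in 23 of 35 member windows (65.7%), against 41.6% of all 33469 windows of this length. At least 4 matches were found for 5 of the 30 members with a window, namely Ldha, Ankrd37, Slc2a1, Slc16a1 and Pdk1. Each of these had a single window, which makes 5 of the 35 member windows, against 3.46% of all windows. The windows were not matched for base composition, so these differences are not read as enrichment of the element. The windows of 8 members, namely Epas1, Egln3, Hk2, Pfkfb4, Tpi1, Pkm, Slc16a3 and Adm, held none. A match is a stretch of letters and not a measured binding site, and its absence concerns this window alone.

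The 4 windows shown are the pair with the most matches and, for contrast, windows of the member with the smallest p and of the lactate exporter. Matches are in capitals, and each is written 5′ to 3′ on the strand of its gene. They lie in GRCr8 at chr1:106507842-106508141 (plus strand) for Ldha, chr16:53001257-53001556 (plus strand) for Ankrd37, chr6:13624680-13624979 (minus strand) for Epas1 and chr10:106712078-106712377 (plus strand) for Slc16a3.
Ldha: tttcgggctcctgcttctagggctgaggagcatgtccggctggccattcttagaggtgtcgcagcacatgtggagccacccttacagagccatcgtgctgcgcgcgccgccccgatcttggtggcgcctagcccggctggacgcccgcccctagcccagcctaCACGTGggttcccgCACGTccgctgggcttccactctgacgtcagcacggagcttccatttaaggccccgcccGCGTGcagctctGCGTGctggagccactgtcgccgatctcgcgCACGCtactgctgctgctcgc
Ankrd37: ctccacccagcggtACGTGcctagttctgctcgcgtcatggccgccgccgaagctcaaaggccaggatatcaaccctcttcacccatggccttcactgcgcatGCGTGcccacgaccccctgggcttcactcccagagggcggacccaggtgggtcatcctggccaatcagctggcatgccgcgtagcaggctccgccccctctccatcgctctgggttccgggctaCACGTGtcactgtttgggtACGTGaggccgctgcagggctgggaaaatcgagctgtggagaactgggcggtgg
Epas1: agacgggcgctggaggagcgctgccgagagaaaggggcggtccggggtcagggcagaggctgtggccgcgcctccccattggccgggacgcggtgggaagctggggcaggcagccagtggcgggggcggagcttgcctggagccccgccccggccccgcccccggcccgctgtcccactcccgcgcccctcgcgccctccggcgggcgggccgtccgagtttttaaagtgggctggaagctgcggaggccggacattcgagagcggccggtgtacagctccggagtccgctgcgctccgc
Slc16a3: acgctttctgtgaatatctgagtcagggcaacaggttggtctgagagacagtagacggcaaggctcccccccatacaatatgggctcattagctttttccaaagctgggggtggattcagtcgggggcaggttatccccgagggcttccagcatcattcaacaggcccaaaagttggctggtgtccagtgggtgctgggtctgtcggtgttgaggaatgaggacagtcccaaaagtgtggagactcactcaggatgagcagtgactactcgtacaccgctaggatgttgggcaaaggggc

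Libraries held between 18277732 and 22426190 counts, and levels are given as CPM, read counts scaled to a common library size after TMM adjustment for composition. Replicate 2 of the TBHP+FGF21 group stood apart from its group. Its Spearman's rho across the tested genes was 0.996 with each TBHP library, against 0.992 and 0.989 with replicates 1 and 3 of its own group. Results that rest on it are given in both ways, with it kept and with it left out. Because it was picked for its likeness to the TBHP libraries, leaving it out favours a difference between the groups. The p-values of that fit, adjusted ones included, are therefore descriptive and not evidence of an effect. TBHP replicate 3 also stood somewhat apart, with a rho of 0.994 with TBHP+FGF21 replicate 1 and 0.993 with each of the other TBHP libraries. Leaving it out moved the genes with an unadjusted p under 0.05 from 1019 to 1771, while Epas1 stayed the only such member (log2 fold change 0.64). Of the cell type markers, 6 of 8 macrophage genes had no count in any library, and the summed level of this list was 1.36 to 2.23 CPM in the TBHP group and 1.58 to 2.31 CPM in the TBHP+FGF21 group. The endothelial list summed to between 0.474 and 1.10 CPM and the erythroid list to at most 0.0469 CPM. The notochordal list summed to 220 to 237 CPM in the TBHP group and 231 to 391 CPM in the TBHP+FGF21 group. Most of it was Pax1, at 229, 211 and 220 CPM and at 348, 224 and 385 CPM (log2 fold change 0.54, adjusted p = 0.553 by edgeR, and 0.75 without TBHP+FGF21 replicate 2, adjusted p = 0.000268 by edgeR), while the defining genes Tbxt, Shh and Noto had no count. The other tested genes of this list went the other way, with log2 fold changes of -0.43 for Krt8, -0.34 for Car3 and -0.55 for Cd24. Foxa2, too low to test, had 5, 10 and 10 counts in the TBHP libraries and 1, 4 and 2 in the TBHP+FGF21 libraries. The cartilage collagen Col2a1 had 9 to 14 counts per library, while 7 of 8 annulus and fibroblast genes were at 1 CPM or more throughout. The exception was Col1a2, with 7 to 17 counts per library beside 639245 to 862314 counts of Col1a1. The cause was not tested, and the low counts of Col1a2 and Col2a1 are not read as their levels. The chondrocyte-like list, most of it Acan, summed to 2612 to 3050 CPM in the TBHP group and 2968 to 4465 CPM in the TBHP+FGF21 group. In this list Acan, Sox9 and Hapln1 had log2 fold changes of 0.40, 0.56 and 0.11, and Comp was at -0.11. Matn3, too low to test, had 8 counts in each TBHP library and 3, 4 and 2 in the TBHP+FGF21 libraries. The annulus and fibroblast list, most of it Col1a1 (log2 fold change -0.19), summed to 42793 to 47290 and 32531 to 44748 CPM. Of its other genes, Scx was at -0.39 and Col3a1 at -0.00081, while Pdgfra, Mkx, Fbln1 and Thy1 were at 0.39, 0.22, 0.16 and 0.061. The part of these lists in the results below was not tested, and in such bulk samples fewer cells of a type and less RNA per cell cannot be told apart.

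No member was called when the TBHP+FGF21 group was compared with the TBHP group. Counts were fitted with edgeR and tested by quasi-likelihood, p-values were adjusted by Benjamini-Hochberg over all 11426 genes, and the smallest adjusted p of a member was 0.553. Of all genes, 1 had an adjusted p under 0.05 (0.00875%). It was Sirt1, whose counts in the combined table were not found in the per-sample files. This was not particular to Sirt1, as 13204 of the 14882 symbols with a count were matched to those files by identical counts. With those files edgeR gave 0 genes at an adjusted p under 0.05 and 1082 at an unadjusted p under 0.05. An unadjusted p under 0.05 was reached by 1 of the 29 tested members (3.45%), Epas1, against 8.92% of all genes tested (4.63% higher and 4.29% lower). The groups did not overlap for 2 members, Hif1a and Mxi1, against 9.90% of all genes. The median log2 fold change of the members was -0.0056, with 14 higher and 15 lower, and that of all genes was -0.0052. The study's threshold, which asks for a log2 fold change beyond 1 in size and an unadjusted p under 0.05, was passed by 0.534% of all genes and by no member.

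**Figure D1:**
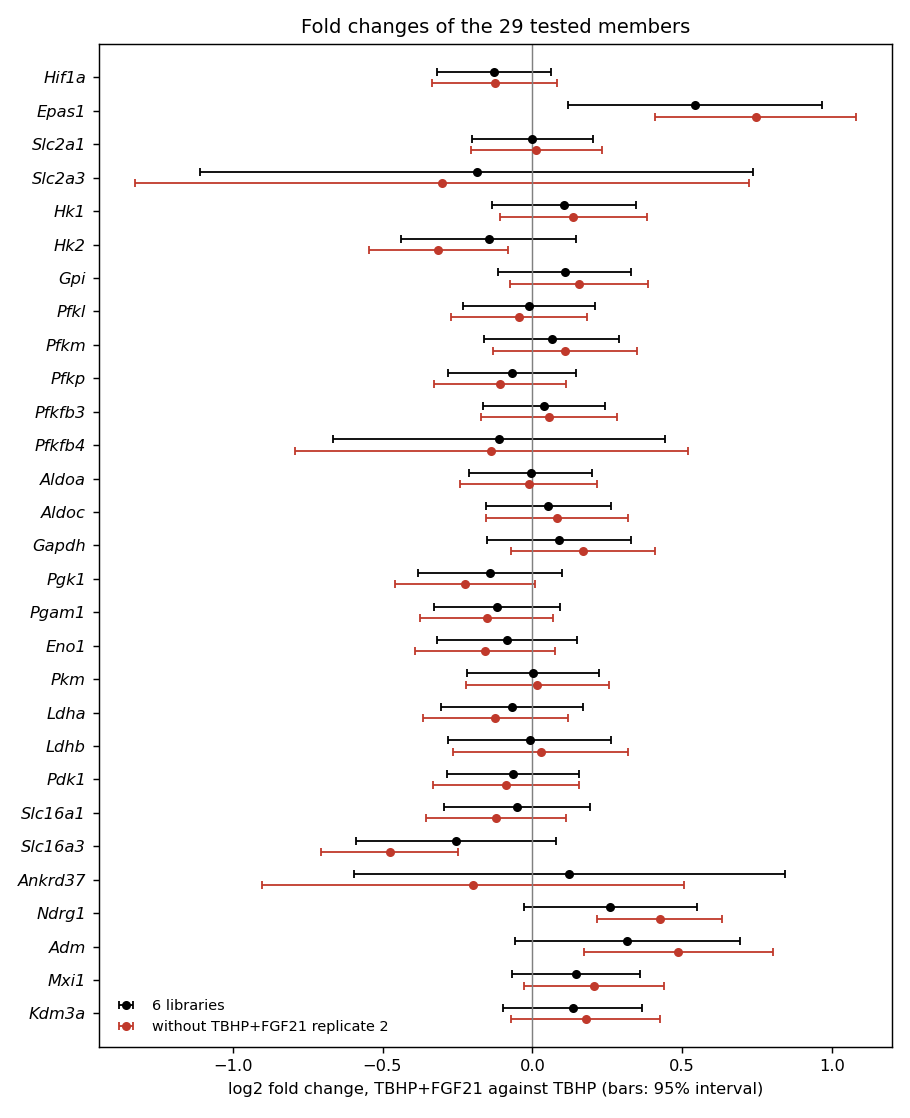
Log2 fold change of the 29 tested members, TBHP+FGF21 against TBHP, with 95% intervals, from all 6 libraries (black) and from the 5 left when TBHP+FGF21 replicate 2 is dropped (red). Epas1 lies farthest from 0 at 0.54, and most enzymes of glycolysis lie close to 0 in both fits.

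Of the HIF subunits, the level of Epas1 was higher in part of the TBHP+FGF21 group, while Hif1a was slightly lower. Epas1 was at 6.98, 6.35 and 7.92 CPM in TBHP replicates 1, 2 and 3 and at 11.1, 7.32 and 12.5 CPM in TBHP+FGF21 replicates 1, 2 and 3. Replicates 1 and 3 were above every TBHP library, and replicate 2 lay within the TBHP range. The mean was 7.08 ± 0.792 CPM in the former and 10.3 ± 2.68 CPM in the latter (SD, n = 3 each), a log2 fold change of 0.54 (95% interval 0.12 to 0.97, adjusted p = 0.553 in edgeR). The fold change lay between 0.38 and 0.75 as the 6 libraries were left out one at a time, and its unadjusted p was under 0.05 except without TBHP replicate 2 or without TBHP+FGF21 replicate 3. Hif1a was at 113, 123 and 117 CPM in the TBHP group and 111, 109 and 104 CPM in the TBHP+FGF21 group. All 3 FGF21 values were below all 3 TBHP values, by a margin smaller than the spread within the TBHP group. Its log2 fold change was -0.13 (95% interval -0.32 to 0.061, adjusted p = 0.618 by the same test). These are transcript levels, and HIF activity is set mainly by the stability of the proteins, which was not measured.

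The hydroxylase gene Egln3, itself a HIF target, was near the limit of detection. It had 1, 3 and 0 counts in the TBHP libraries and 3, 2 and 8 counts in the TBHP+FGF21 libraries, and no fold change is given. A count of 0 allows up to 3 counts, which is 0.134 to 0.164 CPM at these depths, and this limit covers counting error only. Other parts of the oxygen-sensing machinery were measured at higher levels. Of 9 such genes tested, 4 had a positive and 5 a negative log2 fold change. The hydroxylase Egln2, the HIF partner Arnt, the asparagine hydroxylase Hif1an and the ubiquitin ligase subunit Vhl had log2 fold changes of 0.038, 0.082, 0.019 and 0.067, none with an unadjusted p under 0.05. The other ligase subunits Eloc, Elob, Rbx1 and Cul2 were at -0.50, -0.53, -0.28 and -0.044, and Os9 was at -0.0058. Among these, only Eloc had an unadjusted p under 0.05. Without TBHP+FGF21 replicate 2, Elob was at -0.85 (adjusted p = 0.0227 by edgeR), in a fit in which 7.50% of all genes were called.

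No difference in Slc2a1 transcripts was detected, and glucose transport itself was not measured. Slc2a1 (GLUT1), the basal glucose transporter, was at 401, 363 and 354 CPM in the TBHP group and at 357, 371 and 391 CPM in the TBHP+FGF21 group. The ranges overlapped almost entirely, and the means were 373 ± 24.9 and 373 ± 16.9 CPM (SD, n = 3 each). The log2 fold change was 0.00025, with a 95% interval of -0.20 to 0.20. Slc2a3 (GLUT3), a high-affinity transporter of neurons, had only 6 to 17 counts per library, and its interval of -1.11 to 0.74 leaves its change unresolved.

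Transcripts of most enzymes of glycolysis were well measured, and no difference between the groups was detected. From hexokinase to pyruvate kinase, 13 of the 15 members passed the filter, of which 6 had a positive and 7 a negative log2 fold change (Pfkl, Pfkm, Pfkp, Aldoa, Aldoc, Gapdh, Eno1 and Pkm changed sign under an alternative or with 1 library left out), and none had an unadjusted p under 0.05. These fold changes lay between -0.15 and 0.11, and the outermost bounds of their 95% intervals were -0.44 and 0.35. No interval of these enzymes thus reached a log2 fold change of 1 in either direction, while smaller changes within these bounds were not resolved. Leaving out replicate 2 of the TBHP+FGF21 group brought 1 of the 13 to an unadjusted p under 0.05, Hk2, against 23.6% of all genes in that fit.

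In the first steps, hexokinase 1 (Hk1) is the constitutive and hexokinase 2 (Hk2) the hypoxia- and insulin-responsive form. Hk2 was at 52.1, 53.8 and 59.8 CPM in the TBHP group and at 46.8, 61.5 and 41.6 CPM in the TBHP+FGF21 group. Replicate 2 was above every TBHP library, and the other two were below. The log2 fold change was -0.15 (95% interval -0.44 to 0.15), and -0.31 without replicate 2 (95% interval -0.54 to -0.082, adjusted p = 0.0900 by edgeR). Hk1 was at 232 to 274 CPM and 247 to 313 CPM in the respective groups, with a log2 fold change of 0.11. Gpi, which turns glucose 6-phosphate into fructose 6-phosphate, had a log2 fold change of 0.11. The phosphofructokinases Pfkl, Pfkm and Pfkp, which commit sugar to glycolysis, were at -0.011, 0.065 and -0.069, and the aldolases Aldoa and Aldoc at -0.0056 and 0.053. Pfkfb3 and Pfkfb4, which make the activator of phosphofructokinase and are HIF targets, were at 0.038 and -0.11, the latter on 22 to 33 counts per library.

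In the later steps, Gapdh, the glyceraldehyde phosphate dehydrogenase often used as a loading control, was at 3675, 3494 and 3872 CPM in the TBHP group. In the TBHP+FGF21 group it was at 3769, 3530 and 4452 CPM, with replicate 3 the highest of the 6 libraries and the other two inside the TBHP range. Its log2 fold change was 0.090 (95% interval -0.15 to 0.33), and it turned to -0.0050 without replicate 3. Pgk1, phosphoglycerate kinase, was at 1063, 1156 and 1063 CPM in the TBHP group and at 854, 1115 and 1007 CPM in the TBHP+FGF21 group, and had the smallest p of the enzymes (log2 fold change -0.14, 95% interval -0.38 to 0.10, adjusted p = 0.663 by edgeR). Pgam1, phosphoglycerate mutase, was at -0.12, enolase 1 (Eno1) at -0.085 and pyruvate kinase (Pkm) at 0.0030 on the log2 fold change scale. The neuronal enolase Eno2 had 6, 7 and 5 counts in the TBHP libraries and 10, 6 and 1 in the TBHP+FGF21 libraries and could not be tested.

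Tpi1, triose phosphate isomerase, is a required step between aldolase and Gapdh, yet its row held only 6, 4 and 7 counts in the TBHP libraries and 7, 7 and 5 in the TBHP+FGF21 libraries. Aldoa had 35752 to 45465 counts and Gapdh 65789 to 102123, without correction for length. Reads that mapped to more than 1 place (6.27% to 7.02% of a library) or to more than 1 gene (1.72% to 2.09%) are not in these counts, and many glycolytic genes have near-identical copies in the genome. The part of this in the Tpi1 row was not tested, and its counts are not read as its level.

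The summed counts of the 15 enzymes gave a similar picture with a different spread. They made up 1.46%, 1.44% and 1.46% of the counts in TBHP replicates 1, 2 and 3, and 1.35%, 1.47% and 1.60% in TBHP+FGF21 replicates 1, 2 and 3. The TBHP libraries lay close together, while FGF21 replicate 1 was below and replicate 3 above all of them, so the means of 1.46% ± 0.0101 and 1.47% ± 0.122 (SD, n = 3 each) lay closer together than the FGF21 replicates did. Gapdh, Eno1, Pkm and Aldoa together held 76.8% to 79.0% of this sum. By gene, TBHP+FGF21 replicate 1 was below replicate 3 for 11 of the 13 tested enzymes (84.6%), against 49.9% of all genes tested. The contrast between these replicates was therefore larger than the one between the groups.

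**Figure D2:**
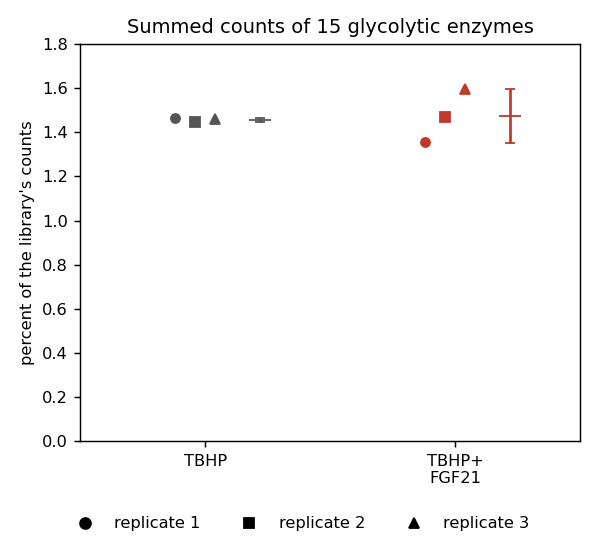
Summed counts of 15 glycolytic enzymes as a percent of each library's counts (y axis, from 0) by group, with markers for replicates 1 to 3 and the mean ± SD beside them. The TBHP libraries lie between 1.44% and 1.46%, and the TBHP+FGF21 libraries between 1.35% and 1.60%.

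Pyruvate made by glycolysis is either reduced to lactate and exported or passed to the mitochondria. All 5 members at this branch had a negative log2 fold change and none had an unadjusted p under 0.05, but only Pdk1 and Slc16a3 kept that sign throughout. Ldhb turned positive in limma-voom, without the filter, with the stranded counts and with some single libraries left out, Ldha was at 0.029 without TBHP+FGF21 replicate 1, and Slc16a1 was at 0.071 without TBHP+FGF21 replicate 3. Ldha, which makes lactate, was at 1820, 1978 and 1715 CPM in the TBHP group and at 1540, 1908 and 1814 CPM in the TBHP+FGF21 group, with overlapping ranges and a log2 fold change of -0.068 (95% interval -0.30 to 0.17). Ldhb, the subunit favouring the reverse reaction, was at -0.0085, and Pdk1 at -0.065. The lactate carrier Slc16a1 (MCT1) was at 81.1 to 87.6 CPM and 68.7 to 90.9 CPM in the respective groups.

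Slc16a3 (MCT4), the HIF-responsive lactate exporter, had the largest difference among these genes. It was at 252, 245 and 226 CPM in the TBHP group and at 157, 262 and 187 CPM in the TBHP+FGF21 group. Replicates 1 and 3 were below every TBHP library and replicate 2 was above all of them. The means were 241 ± 13.4 and 202 ± 53.7 CPM (SD, n = 3 each), and the log2 fold change was -0.26 (95% interval -0.59 to 0.079, adjusted p = 0.585 by edgeR). With TBHP+FGF21 replicate 2 left out it fell by 0.48 on the log2 scale (95% interval -0.70 to -0.25, adjusted p = 0.0145 by edgeR), in a fit in which 7.50% of all genes were called (3.72% lower).

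The remaining HIF targets among the members were all higher in the mean of the TBHP+FGF21 group, with log2 fold changes from 0.12 to 0.32 and no unadjusted p under 0.05, and Ankrd37 changed sign with 1 library left out. Ndrg1, a stress-responsive gene strongly induced in hypoxia, was at 80.0, 73.9 and 75.5 CPM in the TBHP group and at 98.2, 70.8 and 106 CPM in the TBHP+FGF21 group. Replicates 1 and 3 were above every TBHP library, and replicate 2 was the lowest of the 6. The log2 fold change was 0.26 (95% interval -0.027 to 0.55, adjusted p = 0.557 by edgeR). Without replicate 2 it rose by 0.42 (95% interval 0.22 to 0.63, adjusted p = 0.0154 by edgeR).

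Adm encodes adrenomedullin, a vasodilator peptide. It was at 11.2, 9.39 and 11.3 CPM in the TBHP group and at 16.2, 10.1 and 13.5 CPM in the TBHP+FGF21 group, again with replicate 2 inside the TBHP range. The log2 fold change was 0.32 (95% interval -0.058 to 0.69), and 0.49 without replicate 2 (adjusted p = 0.0551 by edgeR). Mxi1, an antagonist of Myc, was at 28.7, 28.1 and 29.5 CPM and at 32.5, 29.5 and 33.4 CPM. These ranges met without overlap, TBHP replicate 3 and FGF21 replicate 2 being almost equal, and the log2 fold change was 0.15 (95% interval -0.068 to 0.36). Kdm3a, a histone demethylase, was at 0.14. Ankrd37 had 22 to 50 counts per library, and its log2 fold change of 0.12 turned to -0.20 without replicate 2 and to -0.097 without TBHP replicate 3.

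**Figure D3:**
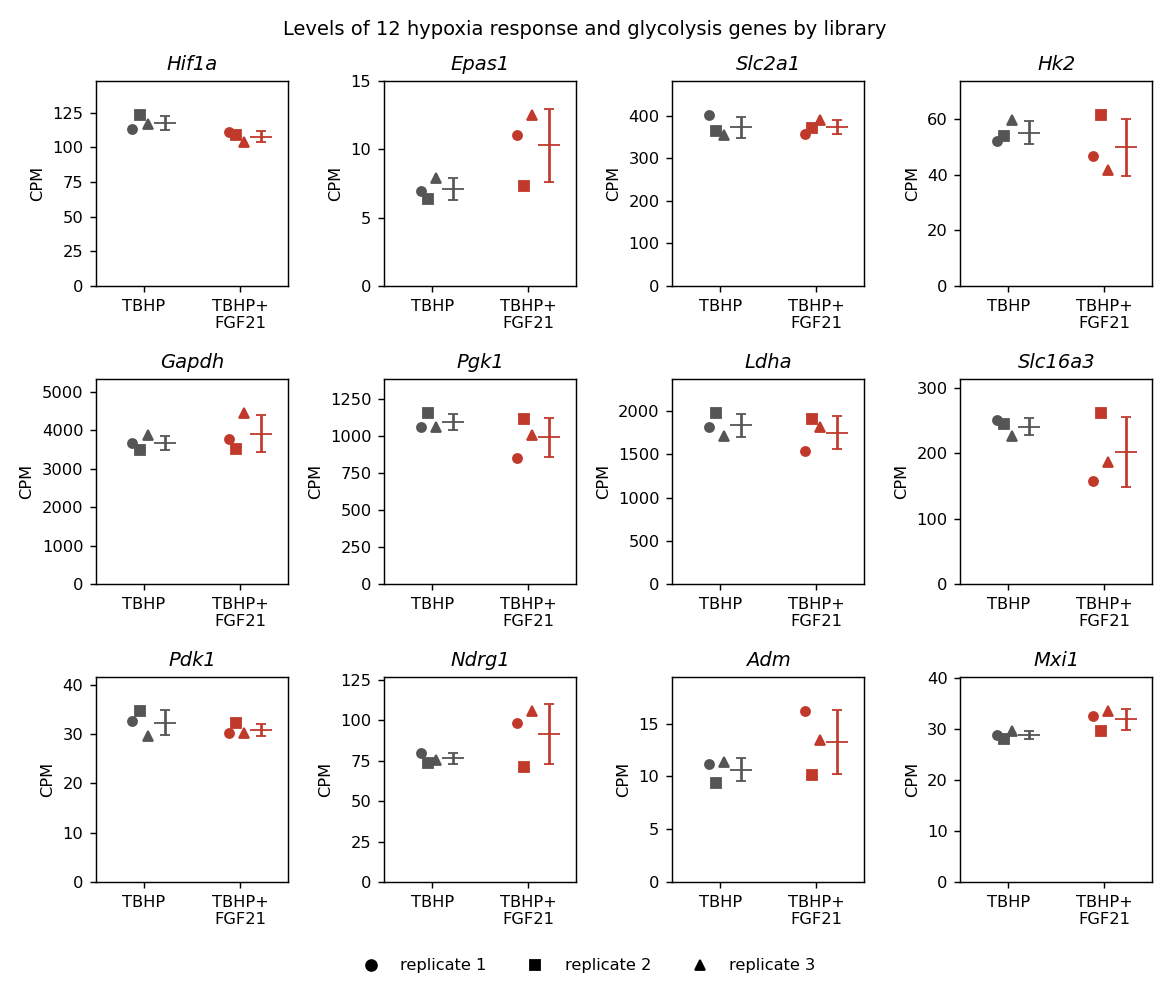
Levels (CPM after TMM scaling, each y axis from 0) of 12 members in the 6 libraries by group, with markers for replicates 1 to 3 and the mean ± SD beside them. In Epas1, Ndrg1 and Slc16a3 replicates 1 and 3 of the TBHP+FGF21 group lie outside the TBHP values while replicate 2 lies inside or beyond them on the other side.

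The members as a whole followed this division of the TBHP+FGF21 group. Replicate 2 lay inside the range of the TBHP libraries for 20 of 29 tested members, against 10 for replicate 1 and 7 for replicate 3. Over all genes tested the shares were 64.4%, 38.6% and 35.4%. Without replicate 2, the members with an adjusted p under 0.05 by edgeR were Epas1, Ndrg1 and Slc16a3, which is 3 of 29 (2 higher, 1 lower), against 7.50% of all genes in that fit (3.78% higher and 3.72% lower). An unadjusted p under 0.05 was reached by 5 of 29, with Hk2 and Adm added (17.2%), against 23.6% of all genes. The groups did not overlap for 11 of 29 members, against 39.8% of all genes, and no member passed the study's threshold, against 1.73% of all genes. Epas1 then rose by 0.75 (95% interval 0.41 to 1.08, adjusted p = 0.00944 by edgeR). Leaving out any other library gave no member an adjusted p under 0.05, and at an unadjusted p under 0.05 it gave Epas1 or none. Read against these backgrounds, the counts do not set the members apart from the other genes. P-values without replicate 2 are descriptive only, since it was picked for its likeness to the TBHP group.

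Within gene families the mix of isozymes was compared as the share of reads within a library, which does not depend on the scaling between libraries and is not corrected for length. Of 7 shares computed, each was compared by a two-sided exact permutation test, which cannot go below p = 0.1 with 3 libraries against 3, and the lowest p was 0.4. The share of Hk2 in Hk1 and Hk2 was 16.6%, 18.8% and 17.9% in the TBHP group and 15.9%, 18.7% and 11.7% in the TBHP+FGF21 group, with replicate 3 the lowest (exact permutation p = 0.4). The 95% Wilson interval of that lowest share was 11.1% to 12.5%, below those of the other libraries. The share of Slc16a3 in Slc16a1 and Slc16a3 was 74.2%, 73.8% and 73.6% in the TBHP group and 64.4%, 74.2% and 73.1% in the TBHP+FGF21 group, where replicate 1 alone was low (exact permutation p = 0.4). Wilson intervals cover counting error only.

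For the other shares the group means were close. Pfkp made up 37.3% ± 2.60 and 36.3% ± 1.36 (SD, n = 3 each) of the phosphofructokinase reads (exact permutation p = 0.6). Ldhb made up 0.920% ± 0.135 and 0.965% ± 0.172 of the lactate dehydrogenase reads (exact permutation p = 0.7), so reads of the lactate-forming Ldha prevailed in every library. Aldoc made up 1.57% ± 0.104 and 1.64% ± 0.0774 of the aldolase reads (exact permutation p = 0.4). Slc2a1 held 99.8% of its pair with Slc2a3 in both groups (exact permutation p = 0.9), and Eno2, with at most 10 counts in a library, had too few reads for its share of the enolase pair to be compared.

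**Figure D4:**
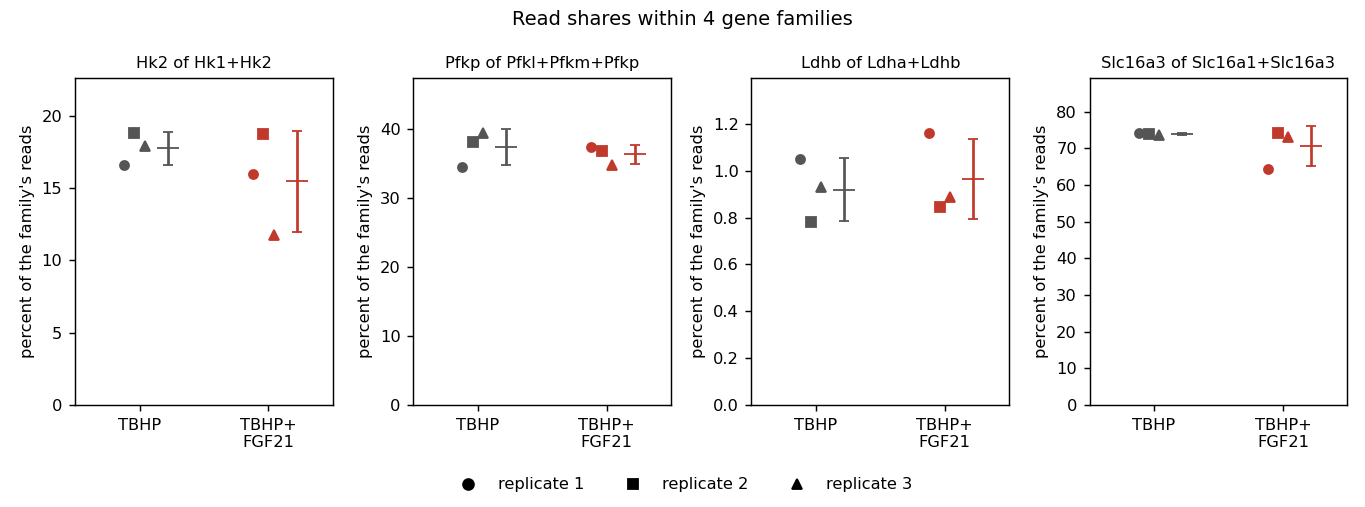
Percent of reads within 4 gene families (y axes from 0) by group, with markers for replicates 1 to 3 and the mean ± SD beside them. The Hk2 share is lowest in TBHP+FGF21 replicate 3 at 11.7%, and the Slc16a3 share in TBHP+FGF21 replicate 1 at 64.4%.

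Beyond the members, 83 further genes of the same pathways were listed, and 71 of them were tested. None had an adjusted p under 0.05, and an unadjusted p under 0.05 was reached by 8 (3 higher, 5 lower), which is 11.3%, against 8.92% of all genes. Among 23 other HIF targets that were tested, 20 had a negative and 3 a positive log2 fold change, with a median of -0.14. Of all 11426 genes, 5834 were negative and 5592 positive. With single libraries left out, Car9, Bhlhe41, P4ha1, Vldlr, P4ha2, Stc2 and Bhlhe40 turned positive, and Insig2 and Plin2 turned negative. Of the 23, Vegfa, the vessel growth factor, was at -0.068 and Car9, the classic hypoxia marker, at -0.020. Plod2, a collagen lysyl hydroxylase, was at 761, 791 and 732 CPM in the TBHP group and at 616, 708 and 477 CPM in the TBHP+FGF21 group, without overlap. Its log2 fold change was -0.34 (adjusted p = 0.553 by edgeR), and -0.47 without replicate 2 (adjusted p = 0.0217 by edgeR). Tfrc, the transferrin receptor, was at 25.5, 27.0 and 26.9 CPM and at 21.5, 23.9 and 14.3 CPM, also without overlap. Its log2 fold change was -0.42 (adjusted p = 0.553 by edgeR), and -0.56 without replicate 2 (adjusted p = 0.0293 by edgeR). Plod2 and Tfrc were the only 2 of the 23 with separate ranges, against 9.90% of all genes.

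Higd1a, a small mitochondrial protein induced in hypoxia, and Eloc, the elongin C subunit of the Vhl ligase, had a different pattern. Higd1a was at 86.5, 83.8 and 50.7 CPM in the TBHP group and at 47.5, 69.3 and 40.0 CPM in the TBHP+FGF21 group. TBHP replicate 3 was low together with FGF21 replicates 1 and 3. Eloc was at 42.4, 51.1 and 26.6 CPM and at 26.3, 37.1 and 21.8 CPM, with the same libraries low. This pattern was not particular to them. Elob was at 31.7, 31.5 and 16.2 CPM and at 13.5, 25.9 and 15.7 CPM, and Rbx1 and the pyruvate carrier gene Mpc2 were low in these libraries too. A difference between libraries and an effect of FGF21 were not separated for these genes. The log2 fold changes of Higd1a and Eloc were both -0.50, with an adjusted p of 0.553 by edgeR for each. Without TBHP+FGF21 replicate 2 they were -0.74 and -0.73 (adjusted p = 0.0145 and 0.0268 by edgeR), in a fit in which 7.50% of all genes were called.

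At the entry of pyruvate into mitochondria, 13 genes were tested. Pdk4, a pyruvate dehydrogenase kinase of fasting, had 19, 4 and 12 counts in the TBHP libraries and 24, 29 and 36 counts in the TBHP+FGF21 libraries. Every FGF21 value was above every TBHP value, while 9.90% of all genes had no overlap in either direction. TBHP replicate 1 and FGF21 replicate 1 were almost equal, at 1.06 and 1.14 CPM. The log2 fold change was 1.23 (95% interval 0.26 to 2.20, adjusted p = 0.553 by edgeR) on very low counts. Without each library in turn it lay between 0.77 and 1.88. Pdp1, the phosphatase that opposes the Pdk kinases, was at 0.30. Of 13 glycogen and pentose phosphate genes, Ppp1r3c, a subunit that directs a phosphatase to glycogen, had the smallest p. It was at 22.3, 22.4 and 23.6 CPM in the TBHP group and at 38.6, 23.7 and 57.9 CPM in the TBHP+FGF21 group, with replicate 2 just above the TBHP libraries. Its log2 fold change was 0.82 (95% interval 0.30 to 1.33, adjusted p = 0.553 by edgeR), and 1.09 without replicate 2 (adjusted p = 0.000197 by edgeR). It was 0.46 without replicate 3. Rpe, an enzyme of the pentose phosphate pathway, was at -0.32. Of 21 further glycolytic isozymes and transporters 13 were tested, and none had an unadjusted p under 0.05.

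**Figure D5:**
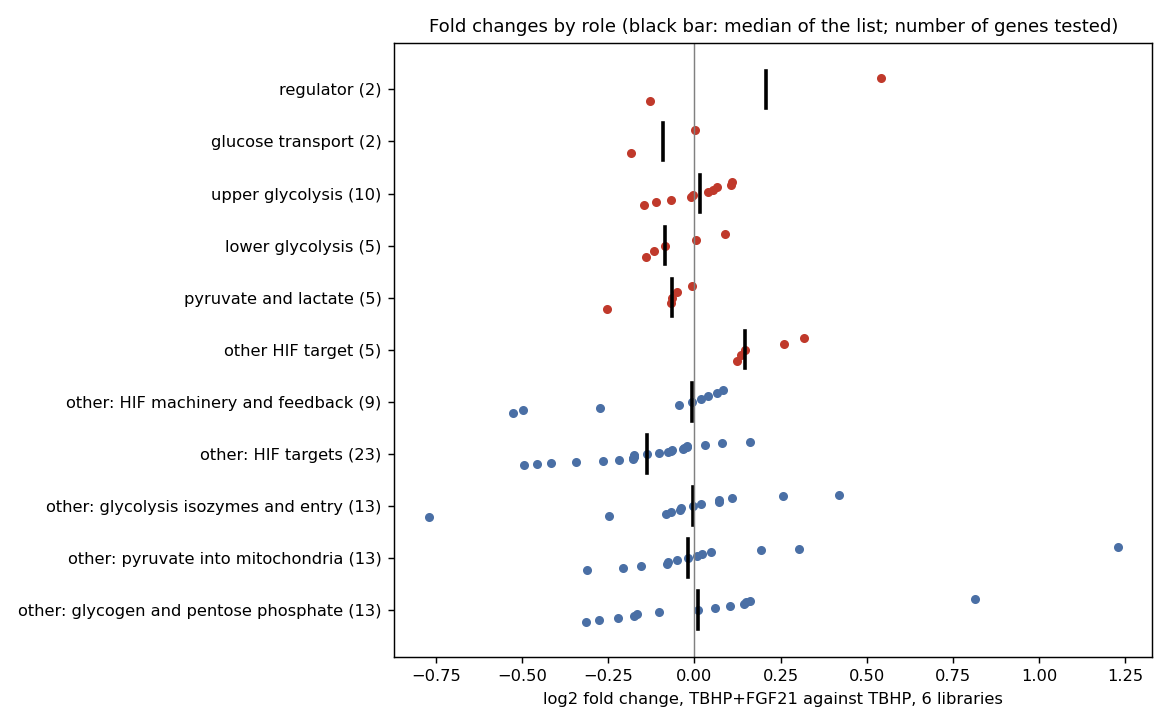
Log2 fold change from all 6 libraries (x axis) of the tested members (red) and of the other listed pathway genes (blue), in rows by role with the number tested and the median as a black bar. The members of upper and lower glycolysis lie close to 0, and 20 of the 23 further HIF targets lie below it. Some of these 20 turned positive with single libraries left out.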

How the data were processed

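RNA-seq read counts of 6 libraries (3 TBHP, 3 TBHP+FGF21) were analysed, grouped by their titles. For each library the authors deposited raw counts by Ensembl gene, unstranded and by strand. A combined table by symbol was deposited too and was treated as estimated counts, since 22 of its rows hold values ending in 0.5, which were rounded up. The submitters' processing notes name STAR and featureCounts. Versions, genome build and annotation are not given in the sources used here. Unmapped, multimapping, ambiguous and unassigned (no gene) reads (1.24% to 1.40%, 6.27% to 7.02%, 1.72% to 2.09% and 9.13% to 10.4%) stayed out of all tests. Of 15 library pairs, none agreed within sampling noise (chi-square per gene 6.97 to 58.7).

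Counts were compared with edgeR 4.0.16 in R 4.3.3 (TMM, filterByExpr with a minimum count of 10 and total of 15, condition only, quasi-likelihood test, Benjamini-Hochberg adjustment over all 11426 genes). The 95% intervals come from the test's F statistic and degrees of freedom. The code was tested on simulated data. Members and lists were chosen with earlier results of these data known. Values per library are given for the HIF regulators, members with an unadjusted p under 0.05 and the 2 largest changes per role, with others where a result turned on them. As exceptions, Slc2a3 and Pfkfb4 are given as ranges of counts and Pgam1 as a fold change only. Of the other pathway genes, those with an unadjusted p under 0.05 were named, up to 3 per list. Egln2, Arnt, Hif1an, Vhl, Elob, Rbx1, Cul2, Os9, Mpc2, Vegfa and Car9, and those named for a change of sign, were added after their values were seen. Tables were linked by identical counts (13204 symbols). DESeq2 1.42.0, limma-voom (limma 3.58.1), other filters, tables and normalization, the replicate block and leaving out each library were the alternatives. Isozyme shares were compared by exact permutation (scipy 1.17.1).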

Additional observations from a re-analysis of the deposited data

How the results depend on the processing

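At an adjusted p under 0.05 the genes called were 1 in edgeR on all 6 libraries, 4 in DESeq2, 5 without the filter on low counts and 2 with the replicate block. There were 0 in limma-voom and with the per-sample unstranded and stranded counts, where 996, 1082 and 1049 genes had an unadjusted p under 0.05. Without the filter 146 genes passed the fold and p threshold (61 with it), and 2 members, Epas1 and Ndrg1, had an unadjusted p under 0.05. Replicate numbers are shared by the groups but did not pair the libraries (correlations of deviations -0.12, 0.21 and 0.15 for numbers 1 to 3, and only number 2 matched its own number best). With the replicate block 1599 genes (1019 without) and 3 members (Epas1, Slc16a3 and Ndrg1) had an unadjusted p under 0.05.

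Of 202 fold changes of members under these alternatives, 191 kept their direction and side of the threshold and 11 turned sign. These were Pfkl at 0.0013, Aldoa at 0.0066 and Ldhb at 0.0036 without the filter, Pkm at -0.0012 and Ldhb at 0.00035 in limma-voom, Pkm at -0.00082 with the block, and Pfkm at -0.075, Aldoa at 0.0079, Aldoc at -0.022, Pkm at -0.0091 and Ldhb at 0.16 with the stranded counts. Slc2a3 was not tested with the stranded counts. The cause was not tested.

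With each library left out in turn, the number of genes ranged from 0 to 867 at an adjusted p under 0.05, from 337 to 2732 at an unadjusted p under 0.05 and from 51 to 200 past the fold and p threshold. The highest of each was without TBHP+FGF21 replicate 2. Members with an unadjusted p under 0.05 ranged from 0 to 5, and their median log2 fold change from -0.022 to 0.042. Of 174 fold changes, 149 kept direction and side, 3 passed the threshold (Epas1, Slc16a3 and Ndrg1 without TBHP+FGF21 replicate 2) and 22 turned sign. The ranges of the log2 fold changes that turned were -0.028 to 0.063 for Slc2a1, -0.49 to 0.18 for Slc2a3, -0.050 to 0.085 for Pfkl, -0.026 to 0.13 for Pfkm, -0.12 to 0.00013 for Pfkp, -0.0023 to 0.087 for Pfkfb3, -0.029 to 0.051 for Aldoa, -0.0050 to 0.17 for Gapdh, -0.16 to 0.011 for Eno1, -0.062 to 0.079 for Pkm, -0.12 to 0.029 for Ldha, -0.070 to 0.099 for Ldhb, -0.12 to 0.071 for Slc16a1 and -0.20 to 0.39 for Ankrd37. The differences in isozyme share, in percentage points, ranged from -3.92 to -0.43 for Hk2, -0.028 to 0.051 for Slc2a1, -2.49 to 0.0071 for Pfkp, 0.023 to 0.12 for Aldoc, -0.0045 to 0.0042 for Eno2, -0.054 to 0.11 for Ldhb and -5.12 to -0.20 for Slc16a3.

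With 3 libraries a group, and 1 FGF21 library close to the TBHP group, the width of the intervals limits what was resolved. Slc2a3, Pfkfb4 and Ankrd37 had few counts, and Egln3, Tpi1 and Eno2 too few to test. Leaving out a library leaves 2 in its group.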
